A study of Mus musculus with 81 samples.

Results

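The 9 enzyme genes described here handle one-carbon units and S-adenosylmethionine (SAM), the donor of most methyl groups in a cell: Mat2a, Mat2b, Ahcy, Ahcyl1, Mtr, Mthfd1, Shmt1, Shmt2 and Cbs. They were taken by symbol, and were 9 of 57010 gene identifiers in the tables. Their RNA was measured in 3 populations of hippocampal neurons, CA1 pyramidal neurons (CA1 PNs), CA3 pyramidal neurons (CA3 PNs) and dentate gyrus granule cells (DGCs), which had been cut by laser capture microdissection from Nissl-stained sections of male mice at 6 MO. The mice were Ts65Dn (Ts), a model of Down syndrome that carries an extra segment of mouse chromosome 16 joined to a centromeric piece of chromosome 17 whose genes have no orthologs on human chromosome 21, or their disomic (2N) littermates, bred from Ts65Dn females and C57Bl/6J Eicher × C3H/HeSnJ F1 males. Their dams had a diet with 1.1 g/kg choline chloride (ChN) or a supplemented one with 5.0 g/kg (ChP) through gestation and lactation, and all offspring had the control diet after weaning. The 81 libraries came from 28 mice, of which 6 were 2N and 6 Ts on ChN, and 7 were 2N and 9 Ts on ChP. CA1 PNs had 6 2N and 5 Ts libraries on ChN and 7 and 9 on ChP. CA3 PNs had 6 and 6 on ChN and 7 and 7 on ChP. DGCs had 6 and 6 on ChN and 7 and 9 on ChP. Diet and any difference in preparation between the diets cannot be told apart from the labels.

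In the methionine cycle, methionine adenosyltransferase makes SAM from methionine; Mat2a encodes its catalytic subunit outside liver and Mat2b a regulatory subunit. Once SAM has given its methyl group, S-adenosylhomocysteine hydrolase (Ahcy) releases homocysteine, and methionine synthase (Mtr) turns homocysteine back to methionine with a methyl group from folate. Ahcyl1 encodes an AHCY-like protein, also called IRBIT, which binds inositol trisphosphate receptors and is not known to hydrolyze S-adenosylhomocysteine. In the folate cycle, the serine hydroxymethyltransferases Shmt1 (cytosol) and Shmt2 (mitochondria) load a one-carbon unit from serine onto folate, and the cytosolic trifunctional enzyme Mthfd1 interconverts the loaded forms. Cystathionine beta-synthase (Cbs) takes homocysteine out of the cycle into transsulfuration. Choline reaches the same cycle through betaine, which in liver and kidney remethylates homocysteine. CBS lies on human chromosome 21, but mouse Cbs, on chromosome 17, is outside the segments that Ts65Dn mice carry in an extra copy, as are the other 8 genes.

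On GRCm39, the build of the files, the genes lie at chr6:72409779-72416684 (Mat2a), chr11:40570130-40586036 (Mat2b), chr2:154901230-154916422 (Ahcy), chr3:107562255-107603950 (Ahcyl1), chr13:12197598-12273090 (Mtr), chr12:76301984-76366588 (Mthfd1), chr11:60661185-60708167 (Shmt1), chr10:127352266-127358323 (Shmt2) and chr17:31827868-31856646 (Cbs). Mthfd1 is on the plus strand and the others on the minus strand. Shmt1 overlaps Top3a on its own strand. Other genes of the tables lie on the opposite strand within the spans of Mat2a (Ggcx, Particl), Ahcy (Gm45609), Mthfd1 (Gm47526, Gm47525, Gm34868), Shmt1 (Smcr8, Gm12611, Gm55448) and Shmt2 (Ndufa4l2), and how the counting used strand is not given in the sources used here, so counts of these genes may hold reads of their partners. The expected counts of all 9 genes were whole numbers in every library.

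The 150 bases before the transcription start are shown for the 5 genes whose levels differed most clearly between DGCs and pyramidal neurons. Shmt1, Mat2a and Mtr were higher in DGCs than in CA3 PNs, and Mat2b and Ahcyl1 were lower there than in CA1 PNs. The windows end 1 base before the most upstream start within 100 bases of the canonical one, on the minus strand of GRCm39, at chr11:60702097-60702246 (Shmt1), chr6:72416685-72416834 (Mat2a), chr13:12273091-12273240 (Mtr), chr11:40586037-40586186 (Mat2b) and chr3:107603951-107604100 (Ahcyl1), and are read 5′ to 3′. Capitals mark a match, on either strand, to the GC box GGGCGG, the CCAAT box or the CRE, TGACGTCA. The E-box CACGTG was searched in the same way.
Shmt1: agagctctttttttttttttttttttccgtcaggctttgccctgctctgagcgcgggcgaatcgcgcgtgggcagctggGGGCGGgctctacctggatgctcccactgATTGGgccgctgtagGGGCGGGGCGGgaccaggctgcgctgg
Mat2a: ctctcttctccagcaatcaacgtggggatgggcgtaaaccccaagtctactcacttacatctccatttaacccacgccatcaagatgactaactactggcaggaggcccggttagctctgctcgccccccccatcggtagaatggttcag
Mtr: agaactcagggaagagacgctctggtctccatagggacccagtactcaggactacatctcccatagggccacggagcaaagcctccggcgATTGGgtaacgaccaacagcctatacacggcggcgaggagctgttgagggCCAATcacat
Mat2b: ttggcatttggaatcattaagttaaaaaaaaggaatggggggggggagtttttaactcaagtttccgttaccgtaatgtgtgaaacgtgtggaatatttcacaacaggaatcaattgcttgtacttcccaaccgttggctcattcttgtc
Ahcyl1: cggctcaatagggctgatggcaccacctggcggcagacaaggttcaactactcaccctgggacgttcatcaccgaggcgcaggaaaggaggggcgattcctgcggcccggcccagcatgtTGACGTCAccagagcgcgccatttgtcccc

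The Shmt1 window held 3 GC boxes, of which 2 overlap by 1 base, and 1 CCAAT box. That of Mtr held 2 CCAAT boxes and that of Ahcyl1 1 CRE, and none of the 4 motifs was in the windows of Mat2a and Mat2b. GC content was 62.7% in Shmt1, 54.0% in Mat2a, 57.3% in Mtr, 40.0% in Mat2b and 63.3% in Ahcyl1, against a median of 55.3% over the windows of 21770 protein-coding genes. Over all 9 genes, 4 windows held a GC box, 4 a CCAAT box, 1 a CRE and 0 an E-box. The share of all windows with each motif was 31.2%, 27.6%, 1.28% and 4.33%. The CRE was added to the search after the sequences were seen, and a match is a description only. Exons of a noncoding gene on the opposite strand reach into the windows of Shmt1 (Gm74448), Mat2a (Particl) and Ahcyl1 (Gm40121).

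Total counts ran from 358355 to 4744044 per library, with a median of 1195087 on ChN and 1050477 on ChP; CA1 PNs had a median of 1071907, CA3 PNs 1538376 and DGCs 929299. Marker genes of each population were high in its own libraries, with an exception in CA1 PNs: in 10 of 27 libraries (3 of 11 on ChN, 7 of 16 on ChP) a list of 6 CA2 markers averaged 5.58 to 7.83 on the log2 scale of CPM (counts scaled to the size of the library), against 1.80 to 3.17 in the other 17, and the CA1 list averaged 2.48 to 7.20 against 7.34 to 7.81. Where leaving out these 10 libraries changed a call of the 9 genes, both values are given. The mean of 29 triplicated genes was 5.69 to 6.08 log2 CPM in the other 38 2N libraries and 6.28 to 6.63 in 42 Ts libraries, while the CA1 PN library of mouse 17-154, labelled 2N, had 6.50. For mouse 15-145 the labels give Ts for CA3 PNs and 2N for the rest of its tissue; it was grouped with 2N throughout, and the triplicated genes averaged 6.08 in that CA3 PN library. Summed astrocyte markers (8 of 8 measured) had medians of 169, 223 and 183 CPM for CA1 PNs, CA3 PNs and DGCs, and summed oligodendrocyte markers (7 of 7) 165, 341 and 186. Other lists were summed over the same libraries, and their ranges were 144 to 448, 124 to 412 and 170 to 327 CPM for interneurons, 5.57 to 33.1, 9.61 to 37.0 and 15.1 to 43.1 for microglia, and 10.6 to 35.1, 17.7 to 43.3 and 6.46 to 24.5 for endothelial cells. Of the choroid plexus list only 1 of 4 genes passed the filter. Of the CA3 list 1 of 5 genes was at 0 in every DGC library. The part of these cells in the results was not tested, and in such samples fewer cells of a type and less RNA per cell cannot be told apart.

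Ahcyl1 and the SAM synthetase subunits were abundant in all 3 populations, while Ahcy, Cbs and Shmt1 were near the detection limit. On a scale that corrects for transcript length (TPM), the median of Ahcyl1 was 79.8 for CA1 PNs, 113 for CA3 PNs and 89.3 for DGCs. The median TPM of Mat2b was 57.7, 58.9 and 55.4 in the same order, and that of Mat2a 35.3, 61.8 and 54.5. Mat2a was thus below Mat2b in CA1 PNs and close to it in CA3 PNs and DGCs. Mthfd1 had 16.4, 18.1 and 19.9 TPM, Mtr 5.85, 5.67 and 7.92, and Shmt2 4.69, 8.01 and 8.62. Cbs had 2.48, 2.11 and 2.71 TPM and Ahcy 0.94, 1.02 and 1.17, and Shmt1 had 1.02 in CA1 PNs, was listed at 0 in the median CA3 PN library and had 3.57 in DGCs. The ranges of neighbors in this order overlapped in each population, and TPM of single libraries varied widely, so the order among neighbors is a description. Median counts over the 81 libraries were 257 for Ahcyl1, 117 for Mat2a, 99 for Mat2b, 45 for Mthfd1, 39 for Mtr, 12 for Shmt2, 4 for Cbs, 3 for Ahcy and 2 for Shmt1. Shmt1 had no count in 19 libraries, Ahcy in 8 and Cbs in 3. Values below are CPM scaled by TMM, for comparison of each gene across libraries. TPM and CPM did not give the same order of populations. Ahcyl1 had its lowest median in CA1 PNs by TPM and in DGCs by CPM. Mat2a had its highest median in CA3 PNs by TPM and in DGCs by CPM. That of Mat2b was in CA3 PNs by TPM and in CA1 PNs by CPM, and that of Shmt2 in DGCs by TPM and in CA3 PNs by CPM. Mthfd1 had its lowest median in CA1 PNs by TPM and in CA3 PNs by CPM, and Cbs the reverse. The reason for this was not tested.

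**Figure D1:**
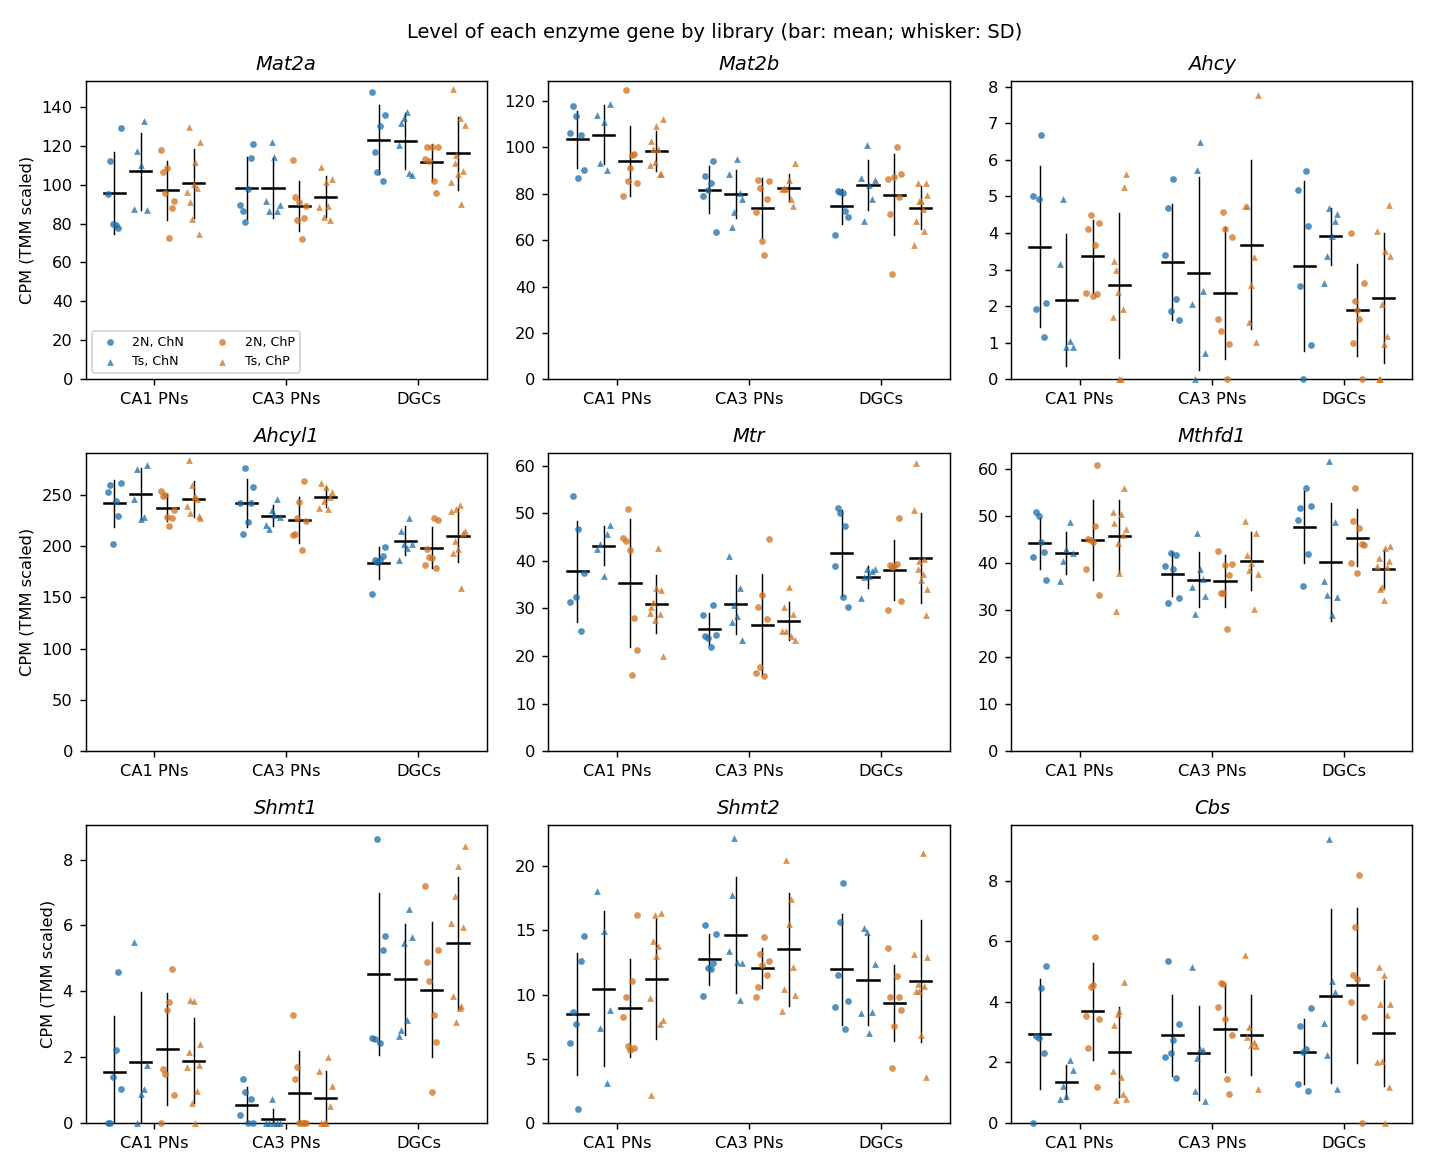
CPM (TMM scaled, linear axis from 0) of the 9 genes in each of the 81 libraries, by population on the horizontal axis and by genotype (circle 2N, triangle Ts) and diet (blue ChN, orange ChP), with the mean as a bar and the SD as a whisker. Shmt1 was highest in DGCs, with a mean of 4.67 CPM, and Ahcyl1 lowest there, with 200.4 CPM, while the ranges of the 4 groups of a population overlapped for each gene.

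The first comparison asked whether the 3 populations of the same mice differed in these genes, with mouse as a block and all libraries. Between CA1 PNs and CA3 PNs 5 of 9 genes passed the test (edgeR quasi-likelihood, Benjamini-Hochberg adjusted p under 0.05 over 20493 genes), 4 of them higher in CA1 PNs, against 40.5% of all genes tested. At an unadjusted p under 0.05 the count was 5 of 9, against 46.6%. For CA1 PNs against DGCs 4 of 9 passed, 2 in each direction, against 50.9%, and 4 of 9 at the unadjusted threshold, against 55.2%. For CA3 PNs against DGCs 5 of 9 passed, 4 of them higher in DGCs, against 57.7%, and 6 of 9 at the unadjusted threshold, against 61.0%. With so many of all genes called, these counts are no result about the 9 genes as a list. The median log-fold change (LFC, base 2) of the 9 was 0.08, -0.14 and -0.17 in the 3 comparisons, and that of all genes tested 0.02, -0.02 and -0.05. Without the 10 CA1 PN libraries high in CA2 markers the counts were 4, 6 and 5 of 9. Mat2b (LFC 0.33), Mtr (0.53), Mthfd1 (0.20) and Shmt2 (-0.64) then passed for CA1 PNs against CA3 PNs, and Ahcyl1 (0.29), Mat2b (0.37) and Mat2a (-0.21) were among the 6 for CA1 PNs against DGCs.

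**Figure D2:**
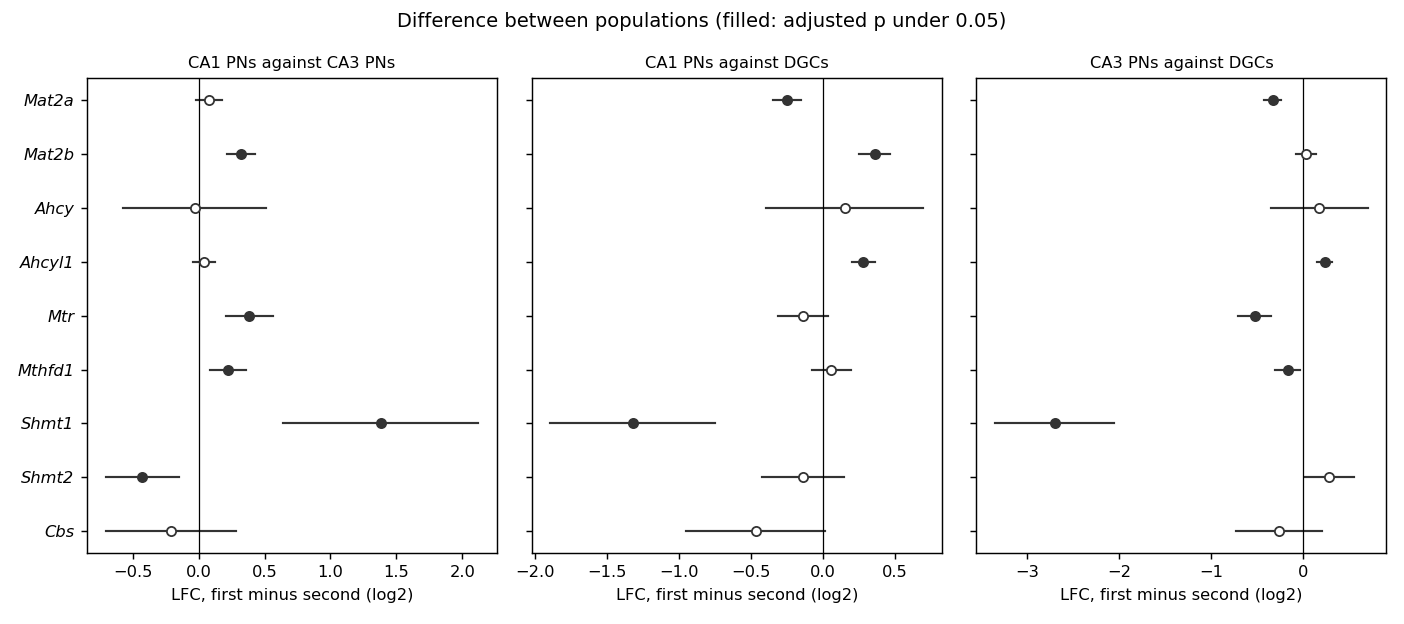
LFC of each gene between populations (first minus second, log2) with its approximate 95% interval from the SE. Filled points have an adjusted p under 0.05, 5, 4 and 5 of 9 from left to right, and Shmt1 has the LFC farthest from 0 in each panel, 1.38, -1.32 and -2.70.

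Shmt1, the cytosolic hydroxymethyltransferase, had the widest spread between populations. It had 0.948 CPM in the lowest, 4.60 in the median and 8.61 in the highest of 28 DGC libraries. In 27 CA1 PN libraries it had 0.0, 1.64 and 5.51 CPM, and in 26 CA3 PN libraries 0.0, 0.0 and 3.28. DGC libraries were all above 0, whereas 14 CA3 PN and 5 CA1 PN libraries had no count, and the ranges overlapped. Within a mouse, DGCs had more Shmt1 than CA3 PNs in 26 of 26 mice (6 of 6 and 7 of 7 2N mice and 6 of 6 and 7 of 7 Ts mice, on ChN and ChP), and more than CA1 PNs in 23 of 27. The level was 6.52-fold higher in DGCs than in CA3 PNs (LFC -2.70, SE 0.33, adjusted p = 2.71e-12) and 2.50-fold higher than in CA1 PNs (LFC -1.32, SE 0.29, adjusted p = 5.14e-05). These values rest on 141 counts in DGCs, 56 in CA1 PNs and 25 in CA3 PNs, and a share of them could belong to Top3a.

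The call of Shmt1 between CA1 PNs and CA3 PNs (LFC 1.38, SE 0.38, adjusted p = 0.00147, edgeR) depended on the libraries high in CA2 markers. The 10 CA1 PN libraries high in these markers had a mean of 2.77 CPM ± 1.65 (SD) and the other 17 had 1.39 ± 1.34. These means rest on 31 and 25 counts. Of the 5 CA1 PN libraries of Ts mice on ChN, 4 had 0.0, 0.879, 1.04 and 1.76 CPM, and the library of mouse 16-357, which was high in CA2 markers, had 5.51. Single libraries on ChP went the other way. Those of mice 16-90 (2N) and 15-199 (Ts), both high in CA2 markers, had 0.854 and 0.599 CPM. Those of mice 16-273 (2N) and 15-245 (Ts), not high in them, had 4.68 and 3.71 CPM. Without the 10 libraries Shmt1 no longer passed between CA1 PNs and CA3 PNs (LFC 0.90, adjusted p = 0.0907, edgeR), while it still differed between CA1 PNs and DGCs (LFC -1.86, adjusted p = 4.49e-06).

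Shmt2, the mitochondrial partner, had the opposite order in the pyramidal neurons. It had 8.69 CPM in the lowest, 12.5 in the median and 22.2 in the highest CA3 PN library, and 1.12, 8.80 and 18.1 CPM in CA1 PNs. In DGCs the values were 3.57, 10.3 and 21.0 CPM. The ranges overlapped widely, but within a mouse CA3 PNs had more in 21 of 25 mice than CA1 PNs (LFC of CA1 PNs against CA3 PNs -0.43, SE 0.14, adjusted p = 0.0091, edgeR). The LFC of CA3 PNs against DGCs was 0.29 (SE 0.14), which did not pass (adjusted p = 0.0615, edgeR). Without the 10 libraries high in CA2 markers CA1 PNs were also below DGCs (LFC -0.42, adjusted p = 0.0301, edgeR), which had not passed with all libraries (LFC -0.14, adjusted p = 0.45).

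Both subunits of the SAM synthetase differed between CA1 PNs and DGCs, in opposite directions. Mat2a, the catalytic subunit, had 90.1 CPM in the lowest, 116 in the median and 149 in the highest DGC library, 72.4, 96.0 and 133 CPM in CA1 PNs and 72.3, 89.3 and 122 in CA3 PNs. DGCs were above CA1 PNs in 25 of 27 mice and above CA3 PNs in 25 of 26, although the ranges over all mice overlapped. The LFC was -0.25 (SE 0.05, adjusted p = 4.96e-06, edgeR) for CA1 PNs and -0.33 (SE 0.05, adjusted p = 3.01e-09) for CA3 PNs against DGCs. Between the 2 pyramidal populations the call depended on the scaling: the LFC of CA1 PNs against CA3 PNs did not pass with TMM (0.08, interval -0.02 to 0.18, adjusted p = 0.208, edgeR) and passed with library totals (0.15, adjusted p = 0.0131), which moved the median LFC of all genes from 0.02 to 0.08. Without the 10 libraries high in CA2 markers it was 0.13 (unadjusted p = 0.026, adjusted p = 0.0599, edgeR).

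Mat2b, the regulatory subunit, was highest in CA1 PNs, with 78.9 CPM in the lowest, 97.1 in the median and 125 in the highest library. It had 53.5, 81.9 and 94.8 CPM in CA3 PNs and 45.2, 79.0 and 101 in DGCs. CA1 PNs were above CA3 PNs in 23 of 25 mice (LFC 0.32, SE 0.06, adjusted p = 4.73e-07, edgeR) and above DGCs in 24 of 27 (LFC 0.36, SE 0.06, adjusted p = 1.61e-08). CA3 PNs and DGCs had an LFC of 0.04, with an interval from -0.07 to 0.15. With library totals in place of TMM, which moved the median LFC of all genes between CA3 PNs and DGCs from -0.05 to -0.26, Mat2b was called lower in CA3 PNs than in DGCs (LFC -0.19, adjusted p = 0.0023, edgeR).

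Ahcyl1 was lower in DGCs than in both pyramidal populations. It had 152.9 CPM in the lowest, 197 in the median and 240.4 in the highest DGC library, 202 to 284 CPM with a median of 246 in CA1 PNs, and 197 to 276 CPM with a median of 237 in CA3 PNs. CA1 PNs were above DGCs in 26 of 27 mice (LFC 0.28, SE 0.04, adjusted p = 5.45e-09, edgeR) and CA3 PNs in 23 of 26 (LFC 0.24, SE 0.04, adjusted p = 4.64e-07). With library totals the second LFC was 0.01 and did not pass (adjusted p = 0.844, edgeR), beside the shift of -0.26 in the median of all genes. CA1 PNs and CA3 PNs had an LFC of 0.04 (interval -0.04 to 0.13), which did not pass with TMM but did with library totals (LFC 0.11, adjusted p = 0.0299, edgeR). Ahcy itself, the hydrolase, had means of 2.94, 3.03 and 2.69 CPM across the 3 populations, and none of its 3 LFC passed, at 91, 127 and 83 counts in all.

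**Figure D3:**
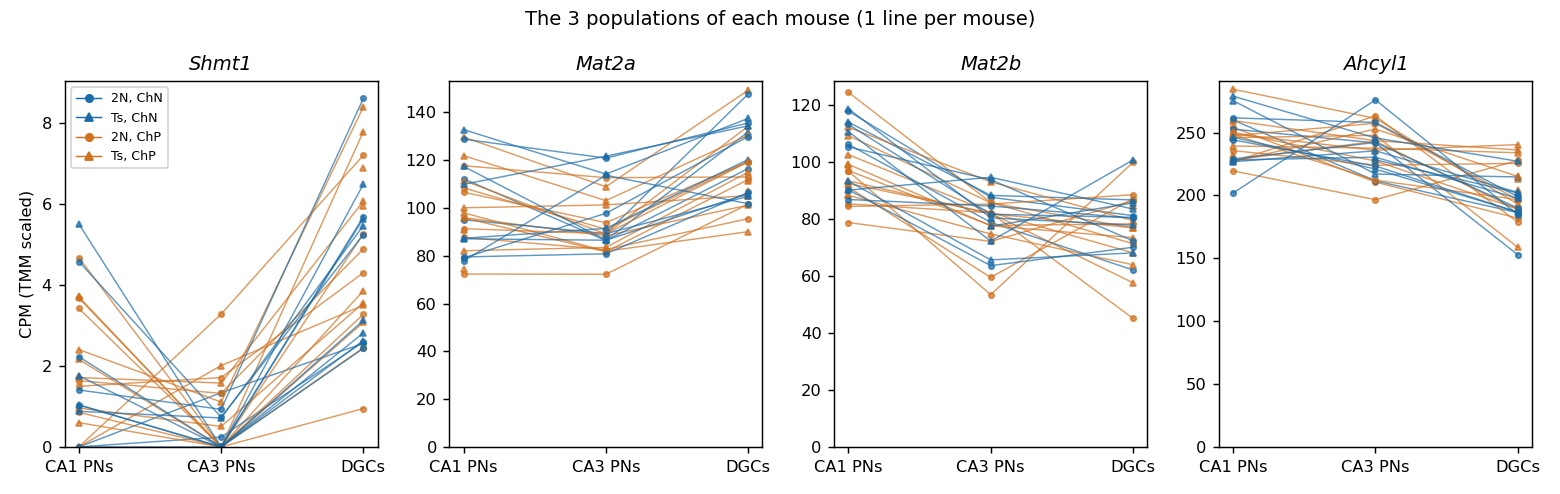
CPM (TMM scaled, linear axis from 0) of Shmt1, Mat2a, Mat2b and Ahcyl1 in the 3 populations of each mouse, with 1 line per mouse, colored by diet and marked by genotype. Shmt1 lines rise from CA3 PNs to DGCs in 26 of 26 mice and Mat2a lines in 25 of 26, while Ahcyl1 lines fall from CA3 PNs to DGCs in 23 of 26.

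Mtr, the methionine synthase, was lowest in CA3 PNs, with 15.9 CPM in the lowest, 27.5 in the median and 44.6 in the highest library. It had 28.6, 38.4 and 60.5 CPM in DGCs and 15.9, 34.3 and 53.7 in CA1 PNs. DGCs were above CA3 PNs in 24 of 26 mice (LFC -0.53, SE 0.09, adjusted p = 2.41e-07, edgeR) and CA1 PNs above CA3 PNs in 20 of 25 (LFC 0.39, SE 0.09, adjusted p = 0.000255). Mthfd1 was also lowest in CA3 PNs, with a mean of 37.8 CPM ± 5.56 (SD), against 44.6 ± 6.76 in CA1 PNs and 42.7 ± 8.19 in DGCs. It passed against both, with smaller LFC of 0.22 (SE 0.07, adjusted p = 0.00638, edgeR) for CA1 PNs against CA3 PNs and -0.17 (SE 0.07, adjusted p = 0.0362) for CA3 PNs against DGCs. CA1 PNs were above CA3 PNs in 20 of 25 mice, but DGCs were above CA3 PNs in only 16 of 26. Of the 7 Ts mice on ChP, 5 had more Mthfd1 in CA3 PNs than in DGCs. The second call was lost without the filter on low counts (adjusted p = 0.0865, edgeR). Both calls were lost in 2N mice on ChN alone (adjusted p = 0.349 and 0.0618, edgeR). Cbs had 2.63, 2.82 and 3.49 CPM on average in CA1 PNs, CA3 PNs and DGCs, and none of its comparisons passed with TMM and all libraries. The LFC of CA1 PNs against DGCs was -0.47 (SE 0.25, adjusted p = 0.108, edgeR), and it passed with library totals (LFC -0.63, SE 0.25, adjusted p = 0.0256) and without the 10 libraries high in CA2 markers (LFC -0.74, SE 0.32, adjusted p = 0.0482). With library totals Mtr also passed as lower in CA1 PNs than in DGCs (LFC -0.30, adjusted p = 0.0052, edgeR), where the median LFC of all genes moved from -0.02 to -0.17.

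Group means by genotype and diet were also set side by side within each population. Those of Ahcyl1 lay between 238 CPM (2N on ChP) and 251 CPM (Ts on ChN) for CA1 PNs, between 225 (2N on ChP) and 248 (Ts on ChP) for CA3 PNs, and between 183 (2N on ChN) and 210.2 (Ts on ChP) for DGCs. Mat2a group means spanned 95.4 to 107, 89.1 to 98.3 and 111 to 123 CPM in the same order, and Mat2b 94.1 to 105, 73.8 to 82.6 and 74.0 to 83.8, so that each group of DGCs had more Mat2a than each group of pyramidal neurons and each group of CA1 PNs more Mat2b than the others. Mtr spanned 30.9 to 43.2, 25.6 to 30.8 and 36.7 to 41.7 CPM, and Mthfd1 42.2 to 45.7, 36.2 to 40.5 and 38.7 to 47.7. Shmt1 spanned 1.54 to 2.25, 0.119 to 0.903 and 4.05 to 5.46 CPM, without overlap between the populations, and Shmt2 8.48 to 11.2, 12.1 to 14.7 and 9.33 to 11.96. For Ahcy (2.17 to 3.63, 2.36 to 3.68 and 1.90 to 3.91) and Cbs (1.35 to 3.68, 2.32 to 3.11 and 2.35 to 4.54) the groups of the 3 populations overlapped.

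The second comparison asked whether trisomy changed these genes in mice of ChN dams. By the edgeR quasi-likelihood test 0 of the genes tested (8 for CA1 PNs, 8 for CA3 PNs and 9 for DGCs) had an adjusted p under 0.05, and 0 had an unadjusted p under 0.05 in each, against 0.00814%, 0.662% and 0.588% of all genes at the adjusted threshold and 3.77%, 9.2% and 8.5% at the unadjusted one. Shmt1 was too low to be tested in CA1 PNs and CA3 PNs. DESeq2 and limma-voom also called 0 members, and edgeR called 0 without the CA1 PN library of mouse 17-154 or the CA3 PN library of mouse 15-145. The LFC farthest from 0 was that of Cbs in CA1 PNs, -1.15 (SE 0.57, unadjusted p = 0.0584, adjusted p = 0.9996, edgeR). There the 5 Ts libraries had 0.787, 0.879, 1.23, 1.76 and 2.07 CPM, or 1 or 2 counts each, and the 6 2N libraries had 0.0 to 5.19 CPM with a median of 2.85, so the groups overlapped. Without the libraries high in CA2 markers it was too low to be tested. In DGCs the LFC of Cbs was 0.74 (SE 0.50), on the other side of 0. The abundant genes allowed narrower bounds: the intervals of Ahcyl1 were -0.18 to 0.25, -0.22 to 0.07 and -0.01 to 0.31 for CA1 PNs, CA3 PNs and DGCs, and those of Mat2a were -0.18 to 0.45, -0.17 to 0.25 and -0.19 to 0.20.

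The same comparison in mice of ChP dams gave 0 of 9, 0 of 8 and 0 of 9 genes at both thresholds in CA1 PNs, CA3 PNs and DGCs, against 0.049%, 0.249% and 0.445% of all genes at the adjusted and 3.6%, 4.99% and 7.6% at the unadjusted threshold. Shmt1 was not tested in CA3 PNs, and DESeq2 and limma-voom again called 0. Ahcyl1 in CA3 PNs came nearest, with an LFC of 0.14 (SE 0.07, unadjusted p = 0.0633, adjusted p = 0.9991, edgeR). Its 7 2N libraries had 197 to 263 CPM with a median of 224, and its 7 Ts libraries had 236 to 261 CPM with a median of 248, within the 2N range. Mtr in CA1 PNs had an LFC of -0.20 (SE 0.20) with all 16 libraries and -0.49 (SE 0.21, unadjusted p = 0.023, adjusted p = 0.616, edgeR) without those high in CA2 markers.

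The third comparison asked whether maternal choline supplementation changed these genes in the offspring, averaged over both genotypes. In CA1 PNs, CA3 PNs and DGCs 0 of 9 genes had an adjusted p under 0.05 (edgeR), against 0.0%, 0.00598% and 0.0% of all genes, and 1, 1 and 0 had an unadjusted p under 0.05, against 3.3%, 4.58% and 5.94%. DESeq2 and limma-voom called 0 members. Mtr in CA1 PNs had an LFC of -0.30 (SE 0.14, unadjusted p = 0.0395, adjusted p = 0.9997). In 2N mice it had 25.2 CPM in the lowest, 34.9 in the median and 53.7 in the highest library on ChN and 15.9, 42.2 and 50.9 on ChP. In Ts mice the 5 ChN libraries had 36.9, 42.5, 43.6, 45.6 and 47.5 CPM, and the 9 ChP libraries had 20.1 in the lowest, 30.3 in the median and 42.8 in the highest. The diets overlapped in both genotypes. Mtr was also lower in the 10 libraries high in CA2 markers (30.2 CPM ± 8.35, SD) than in the other 17 (39.2 ± 9.35), and 7 of the 10 were on ChP. With the 17 libraries left after leaving them out the LFC was -0.28 (unadjusted p = 0.053, edgeR), and their part in it was not tested.

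Shmt1 in CA3 PNs had a diet LFC of 1.47 (SE 0.69, unadjusted p = 0.0373, adjusted p = 0.9991, edgeR) at very low counts. On ChN it was at 0 in 5 of 6 Ts libraries, with 0.716 CPM in the other, and at 0 in 2 of 6 2N libraries, with a highest value of 1.34. On ChP it was at 0 in 3 of 7 Ts and 4 of 7 2N libraries, with highest values of 2.01 and 3.28 CPM. The groups overlapped, limma-voom gave an LFC of 0.69, and edgeR gave 1.32 without the library of mouse 15-145, where the unadjusted p was no longer under 0.05. For the abundant genes the diet intervals were narrow: Ahcyl1 had -0.15 to 0.09, -0.09 to 0.12 and -0.04 to 0.19 for CA1 PNs, CA3 PNs and DGCs, and Mat2b had -0.28 to 0.04, -0.20 to 0.10 and -0.19 to 0.13. Those of Ahcy (-0.70 to 0.81, -0.84 to 0.54 and -1.37 to 0.18) and Cbs (-0.21 to 1.29, -0.35 to 0.98 and -0.48 to 0.89) were several times wider, at medians of 3 and 4 counts per library. Without the libraries high in CA2 markers the diet LFC of Cbs in CA1 PNs was 0.03 (interval -0.89 to 0.95) in place of 0.54, and that of Shmt1 was 1.12 in place of 0.29, and neither passed (unadjusted p = 0.949 and 0.1, edgeR).

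**Figure D4:**
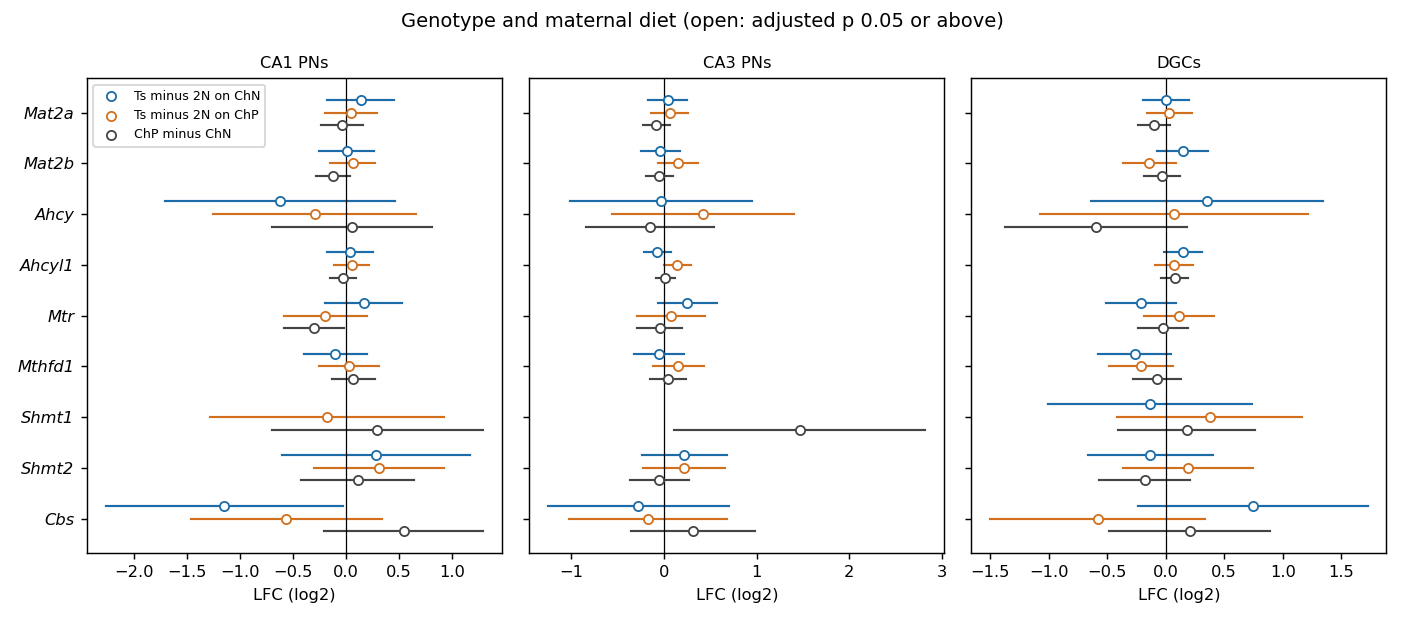
LFC (log2) with approximate 95% intervals of the 9 genes for Ts against 2N on ChN (blue), Ts against 2N on ChP (orange) and ChP against ChN (grey), 1 panel per population. All points are open, since 0 of the adjusted p were under 0.05. Intervals were narrow for Ahcyl1, Mat2a and Mat2b and wide for Ahcy, Cbs and Shmt1, which was not tested in 3 of the comparisons.

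The difference between genotypes in the diet LFC was called for 0 of 9 genes in each population (edgeR; DESeq2 and limma-voom also 0), against 0.0% of all genes in each. At an unadjusted p under 0.05 the counts were 0, 1 and 0 in CA1 PNs, CA3 PNs and DGCs, against 3.22%, 4.87% and 3.97%. Ahcyl1 in CA3 PNs was the 1 gene, with a difference of 0.23 (SE 0.11, unadjusted p = 0.0366, adjusted p = 0.983, edgeR). Its median was 242 CPM (212 to 276) in 2N on ChN, 224 (197 to 263) in 2N on ChP, 229 (217 to 246) in Ts on ChN and 248 (236 to 261) in Ts on ChP. The difference between populations in the diet LFC was also called for 0 of 9 genes, at the adjusted and the unadjusted threshold, in each of 3 pairs (edgeR). The shares of all genes were 0.00488% and 3.62% for CA1 PNs against CA3 PNs, 0.0% and 3.9% for CA1 PNs against DGCs, and 0.0% and 3.51% for CA3 PNs against DGCs. Mtr in CA1 PNs against DGCs had the smallest p, with a difference of -0.31 (SE 0.18, unadjusted p = 0.0894, adjusted p = 1.0, edgeR).

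A list of 51 other genes of the same pathways was counted beside the 9. Of 45 tested between populations, 19 passed for CA1 PNs against CA3 PNs, 8 of them higher in the first, 29 for CA1 PNs against DGCs (15 higher in the first) and 29 for CA3 PNs against DGCs (15 higher in the first), by edgeR and at the backgrounds given above. Ahcyl2, the paralog of Ahcyl1, had means of 142 CPM ± 94.1 (SD) for CA1 PNs, 77.1 ± 15.0 for CA3 PNs and 567 ± 54.5 for DGCs. Its LFC of CA3 PNs against DGCs was -2.84 (SE 0.14, adjusted p = 1.14e-24, edgeR). By CPM scaled with TMM it was thus highest where Ahcyl1 was lowest. By TPM the median of Ahcyl1 was lowest in CA1 PNs, and with library totals Ahcyl1 did not pass between CA3 PNs and DGCs. Mtrr, which reactivates methionine synthase, was higher in DGCs than in CA3 PNs (LFC -1.17, SE 0.12, adjusted p = 4.98e-16), as Mtr was. Mthfd1l, the mitochondrial formate-producing synthetase, was lower in DGCs than in CA3 PNs (LFC 1.53, SE 0.15, adjusted p = 9.71e-17).

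The lists within these pathways were small, and their counts are read against the 40.5%, 50.9% and 57.7% of all genes called in the 3 comparisons. The counts of pathway genes were not recomputed without the CA1 PN libraries high in CA2 markers. Of the folate genes 4 of 18 were lower in CA1 PNs than CA3 PNs and 1 was higher, the former with Tyms, thymidylate synthase, with an LFC of -1.72 (SE 0.26, adjusted p = 6.09e-09, edgeR). Of the serine and glycine genes 0 of 7 were higher in CA1 PNs and 4 were lower, among them Psat1 of serine synthesis (LFC -0.93, SE 0.11, adjusted p = 2.5e-13). All 4 polyamine genes were higher in CA1 PNs than in CA3 PNs. For CA1 PNs against DGCs 7 folate genes were higher and 4 lower, 2 serine and glycine genes higher and 3 lower, and 2 polyamine genes higher and 1 lower. For CA3 PNs against DGCs the counts were 4 and 4 for folate, 4 and 2 for serine and glycine, and 1 and 2 for polyamines, so none of these 3 lists went 1 way in all 3 comparisons. Hnmt, which methylates histamine, was higher in CA1 PNs than in DGCs (LFC 1.71, SE 0.13, adjusted p = 2.86e-22). Dld, the E3 subunit of the glycine cleavage system and other complexes, was higher in CA1 PNs than in DGCs as well (LFC 0.53, SE 0.05, adjusted p = 4.77e-17).

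By genotype on ChN, 1 of 39 pathway genes tested in CA3 PNs rose and 0 fell, while 0 of 38 in CA1 PNs and 0 of 40 in DGCs passed (edgeR; 4, 6 and 5 at an unadjusted p under 0.05 in CA1 PNs, CA3 PNs and DGCs). The gene was Gart, a folate-dependent enzyme of purine synthesis that lies in the segment triplicated in Ts65Dn mice and is in the list that checked the genotype labels, with an LFC of 0.60 in CA3 PNs (SE 0.15, adjusted p = 0.0411). Its LFC was 0.62 (SE 0.18) in CA1 PNs and 0.51 (SE 0.20) in DGCs, and on ChP 0.78 (SE 0.15, adjusted p = 0.0513), 0.52 (SE 0.15) and 0.60 (SE 0.19), none of which passed. On ChN 0.00814%, 0.662% and 0.588% of all genes were called in CA1 PNs, CA3 PNs and DGCs, and 3.77%, 9.2% and 8.5% had an unadjusted p under 0.05. On ChP 0 of 41, 0 of 42 and 0 of 42 pathway genes were called in CA1 PNs, CA3 PNs and DGCs. There 2, 4 and 5 had an unadjusted p under 0.05, against 3.6%, 4.99% and 7.6% of all genes. For diet 0 of 43, 0 of 43 and 0 of 44 were called, and 2, 0 and 3 had an unadjusted p under 0.05, against 3.3%, 4.58% and 5.94%. For diet by genotype 0 of the same numbers were called, and 3, 1 and 6 had an unadjusted p under 0.05, against 3.22%, 4.87% and 3.97%. For the difference between populations in the diet LFC 0 of 45 were called in each pair. In the order of pairs above 2, 1 and 2 had an unadjusted p under 0.05, against 3.62%, 3.9% and 3.51%.

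The genes whose level across the 81 libraries was most like that of each member, by Pearson's r of log2 CPM among genes with a mean of at least 3, were Clk1 (0.714) and Slf2 (0.705) for Mat2a, Fuca1 (0.675) and Cyria (0.663) for Mat2b, Chpt1 (0.74) and Dner (0.738) for Ahcyl1, Gm42843 (0.697) and Syt14 (0.682) for Mtr, and Usp2 (0.778) and Acvr2a (0.773) for Shmt1. For the other 4 the highest r was lower, with Lias (0.431) and Eif2b1 (0.388) for Ahcy, AI987944 (0.489) and Cep97 (0.469) for Mthfd1, Cep120 (0.582) and Ppib (0.515) for Shmt2, and Pgls (0.421) and Tars2 (0.414) for Cbs. The libraries share mice and fall into 3 populations, and these r are a description.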

How the data were processed

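RNA of 3 neuronal populations of 28 male mice was sequenced by the authors as stranded total RNA libraries, 81 in all. Per the labels and the study's methods, reads were checked with FastQC 0.11.9, trimmed with Trimmomatic 0.39, aligned with STAR (GRCm39 genome) and counted by RSEM, with Picard 2.26.2 for metrics, as the submitters' processing notes also list. The authors deposited RSEM's expected counts, not normalized, as 3 matrices and 1 file per library, which held the same values, and TPM. RSEM divides reads that match several genes. TPM was used only to compare genes by level, since very short genes take up much of the total in some libraries. Symbols came from the Gencode mouse annotation (56310 of 57010 identifiers).

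Expected counts were rounded. A gene entered a fit if 10 or more of its libraries (all, where fewer were left) exceeded 0.1 CPM, and was tested with edgeR 4.0.16 in R 4.3.3 (TMM, estimateDisp, robust glmQLFit, glmQLFTest, two-sided). Called means a Benjamini-Hochberg adjusted p under 0.05 over all genes tested, and the study's threshold, an unadjusted p under 0.05, is given beside it. Genotype was tested within a diet, diet and diet by genotype in 4 groups per population, and populations with mouse as a block, since the same mice gave them. SE is the absolute LFC over the square root of F. Levels are CPM scaled with TMM, with a prior count of 2 for logs. The study's covariates were not used here. Depth limits precision as each SE shows. Library totals ran from 358355 to 4744044.

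The text describes all 9 members, gives the LFC, SE and p of each with an unadjusted p under 0.05 in a comparison, names at most 3 pathway genes per comparison (those of smallest p) and the 2 genes most like a member. One gene this rule names is not reported here. Other members and Gart were named beyond this after their values were seen. The members, the pathway list and the marker lists were chosen with earlier results of these data known. Alternatives were DESeq2 1.42.0, limma-voom (limma 3.58.1), library totals, other filters, no block, 2N mice on ChN alone, 1 genotype alone, 4 groups in 1 fit, leaving out each library or the doubted ones (CA1 PN of mice 17-21 and 17-154, CA3 PN of mouse 15-145), and mouse 15-145 under its own label. Leaving out the CA1 PN libraries with CA2 markers above 5 log2 CPM was chosen after seeing the data. The fits were tested on simulated data, with counts independent between libraries, 1 spread for all genes and no effect of mouse. Recovery of changes was judged only in genes with more counts than Shmt1, Ahcy and Cbs had.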

Additional observations from a re-analysis of the deposited data

Results flagged for a closer look

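A sample stood apart from its group by Dixon's test (95%) in 6 of 108 groups of 4 to 10 libraries, near the 1 in 20 that chance gives. Mat2b in DGCs of 2N mice on ChP was 45.19 CPM in mouse 15-296, with 71.4 to 99.96 in the other 6. Ahcyl1 in DGCs of 2N mice on ChN was 152.9 CPM in mouse 15-145, with 184.8 to 199.1 in the other 5. Mtr in DGCs of Ts mice on ChN was 32.22 CPM in mouse 16-357, with 36.6 to 38.4 in the other 5. Shmt1 in CA3 PNs of Ts mice on ChN was 0.7158 CPM in mouse 17-153, which is 1 count, with 0.0 in the other 5. Shmt2 in CA1 PNs of Ts mice on ChP was 2.162 CPM, or 2 counts, in mouse 15-140, with 7.69 to 16.3 in the other 8. Cbs in DGCs of 2N mice on ChP was 0.0 CPM in mouse 16-273, with 3.51 to 8.19 in the other 6.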

How the results depend on the processing

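Of 207 recomputed counts of members called, 206 stayed within 1.5 times the count reported, among them all 89 that left out 1 library. Those 89 were fits of genotype on ChN and, in CA1 PNs, of diet and diet by genotype. In these comparisons 0 members were called with all libraries. Most of the other recomputed counts were also for comparisons with 0 members called. The comparisons of populations, which hold every call, were not recomputed with 1 library left out. In mice that were 2N and on ChN alone, the count between CA1 PNs and CA3 PNs fell from 5 to 2 (Mtr and Mat2b), in a fit with fewer samples. For members with an unadjusted p under 0.05 in a comparison, 156 LFC were recomputed, of which 148 kept their side of the threshold, 8 lost a call and 0 changed sign. Other members are not in that tally, and some gained a call or changed sign: with library totals Mat2a and Ahcyl1 (CA1 PNs against CA3 PNs), Mtr and Cbs (CA1 PNs against DGCs) and Mat2b (CA3 PNs against DGCs, LFC from 0.04 to -0.19) passed and Mthfd1 (CA1 PNs against DGCs) went from 0.06 to -0.10, and without the libraries high in CA2 markers Cbs and Shmt2 passed between CA1 PNs and DGCs. Ahcy changed sign in each comparison of populations with library totals. It also did so between CA1 PNs and DGCs without the libraries high in CA2 markers (LFC from 0.15 to -0.18). Sign changes of such members in the comparisons of genotype and diet are not listed. Ahcyl1 lost its call between CA3 PNs and DGCs with library totals (adjusted p = 0.844, edgeR), and Shmt1 between CA1 PNs and CA3 PNs without the libraries high in CA2 markers (0.0907). In 2N mice on ChN alone the calls lost were Shmt1, Mthfd1 and Shmt2 between CA1 PNs and CA3 PNs (adjusted p = 0.366, 0.349 and 0.212, edgeR), Shmt1 between CA1 PNs and DGCs (0.0588) and Mthfd1 between CA3 PNs and DGCs (LFC -0.36, 0.0618). Mthfd1 between CA3 PNs and DGCs was also lost without a filter (0.0865). Library totals in place of TMM called 7, 6 and 5 members in the 3 comparisons of populations, with 6, 2 and 0 higher in the first population, against 4, 2 and 1 with TMM; of all calls, 59.3%, 37.6% and 34.5% were then higher in the first, against 50.5%, 50.6% and 48.6%. Fits without the replicate block for mouse called 5, 4 and 5 members, as with it, and 0 in the differences of diet LFC. Without the CA1 PN libraries high in CA2 markers the counts were 4, 6 and 5. The cause of these changes was not tested. Genes at a few counts per library, Ahcy, Cbs and Shmt1, had LFC standard errors from 0.24 to 1.26.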
